A study of Mus musculus with 30 samples.

Results

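Del(CBS1-5) is a mouse allele with mutations, on 1 chromosome, in 5 CTCF binding sites (CBS1 to CBS5) of the HoxD cluster. The libraries carrying that genotype label, 2 for CTCF and 2 for RAD21, were compared with the libraries labelled WT, 3 for CTCF and 4 for RAD21, and each antibody was treated separately. These are 11 of the 30 libraries of the series. All came from trunks of B6CBAF1 embryos at E10.5, taken below the head. Mutant embryos were homozygous, the WT embryos were control littermates from crosses between trans-heterozygous parents, and no other allele or treatment is given for any group. Trunks were dissociated one at a time, and the labels do not say whether any library combines embryos, so the spread between libraries may be partly technical. The trunk holds many cell types: a weaker peak from fewer occupied cells and one from less protein per cell cannot be told apart. No expression was measured, so the tissue could not be checked against marker genes.

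CTCF is a zinc finger protein that binds a long DNA motif and halts cohesin, the ring complex that extrudes chromatin loops. RAD21 is a cohesin subunit, and its peaks therefore lie mostly on CTCF sites. In the HoxD cluster, CTCF sites separate the posterior genes, from Evx2 and Hoxd13 onward, from the anterior genes around Hoxd3, and this arrangement is known for ordering Hoxd gene activation along the trunk. The libraries were made by ChIPmentation, chromatin immunoprecipitation in which Tn5 transposase adds the sequencing adapters while the chromatin is still bound to beads. The fold enrichment below is the height of a peak over the local background of its own library, on a linear scale.

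A WT site is a place with a peak over the same summit in all WT libraries of an antibody. It is called lost when neither Del(CBS1-5) library has a peak over it, and gained sites are the reverse. A promoter site lies within 1 kb of an annotated 5′ end, and a gene body site lies elsewhere inside a gene. Promoter windows of 3 genes are printed because each holds a changed site of a different kind described below: Hoxd10 a lost CTCF and RAD21 site, Tsfm a lost RAD21 site, and Tnfaip8l2 a gained CTCF site. They run 5′ to 3′ along the gene, from RefSeq on GRCm38.p6 (mm10): Hoxd10 at chr2:74691641-74691940 on the plus strand, Tsfm at chr10:127030765-127031064 on the minus strand and Tnfaip8l2 at chr3:95142305-95142604 on the minus strand. Capitals mark the 21 bases centred on the summit of the changed site, for Hoxd10 that of CTCF at base 139, with the RAD21 summit at base 154.
Hoxd10: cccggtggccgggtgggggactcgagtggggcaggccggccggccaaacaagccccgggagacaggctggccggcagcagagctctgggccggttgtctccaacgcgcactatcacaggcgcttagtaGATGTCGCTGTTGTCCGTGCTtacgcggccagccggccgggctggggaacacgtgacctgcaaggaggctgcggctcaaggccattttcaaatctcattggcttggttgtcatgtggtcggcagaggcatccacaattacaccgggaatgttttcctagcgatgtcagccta
Tsfm: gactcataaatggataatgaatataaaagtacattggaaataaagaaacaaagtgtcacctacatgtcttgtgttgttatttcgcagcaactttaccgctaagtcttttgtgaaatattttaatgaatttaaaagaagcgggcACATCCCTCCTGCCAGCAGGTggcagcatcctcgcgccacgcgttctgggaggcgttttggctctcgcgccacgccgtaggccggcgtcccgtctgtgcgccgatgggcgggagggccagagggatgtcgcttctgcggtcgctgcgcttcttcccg
Tnfaip8l2: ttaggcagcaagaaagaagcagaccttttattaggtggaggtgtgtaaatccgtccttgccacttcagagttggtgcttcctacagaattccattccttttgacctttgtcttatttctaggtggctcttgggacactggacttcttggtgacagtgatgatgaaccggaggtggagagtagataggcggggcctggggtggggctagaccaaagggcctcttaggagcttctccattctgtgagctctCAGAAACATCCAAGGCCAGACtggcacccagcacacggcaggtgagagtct
A short CTCF core (CC, any 4 bases, G, any 2 bases, GGC), searched on both strands, had 3 matches in the Tsfm window, the first at bases 155 to 166, next to the RAD21 summit at base 154. It had 0 matches in the Hoxd10 and Tnfaip8l2 windows. It was found in 25.3% of 32851 promoter windows of this length, in 62.7% of the 1679 with a WT CTCF site, in 6 of the 9 with a lost CTCF site and in 24 of the 43 with a gained one. With a stricter core, which also needs an A before the single G and so lies within the first, these shares were 8.61%, 39.0%, 3 of 9 and 10 of 43. Windows were counted rather than sites, so a site can enter with several overlapping windows. Calr and 1700122E12Rik share a lost site and its match. Tmem123, Tatdn3 and Fbxo27 each have several windows on the same gained site.

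The deposited lists held 52925 to 75027 peaks for CTCF in WT and 58335 and 73916 in Del(CBS1-5). For RAD21 they held 22449 to 39841 peaks in WT and 26742 and 16676 in Del(CBS1-5), so the shortest RAD21 list belonged to Del(CBS1-5) replicate 2. The read depth was unknown. At tRNA genes the RAD21 libraries of the series fell into separate levels, and WT replicate 4 stood with the low ones.

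At HoxD, CTCF peaks were absent or weak over 5 neighbouring sites, from Hoxd11 to Hoxd3, and present in both mutant libraries over the other 7 CTCF sites of the window examined, which spans Evx2 to Hoxd1 and 20 kb on each side. The labels give no coordinates for CBS1 to CBS5. The 5 positions were matched to these names by the alleles in which each peak is missing or weaker across the series. The match is not clean at CBS1 and CBS2. A peak still covered CBS1 in Del(CBS1-3) replicate 1 (6.92) and Del(CBS1-4) replicate 2 (3.67). Its summit lay 280 and 282 bp past that of WT. Peaks left over CBS2 are given below. CBS1 lies in the promoter of Hoxd3os1, an antisense transcript at Hoxd3, 197 bp from its 5′ end, at chr2 position 74715933. Its fold enrichment was 18.4, 12.5 and 14.2 in WT replicates 1, 2 and 3, and neither mutant library had a peak over it. CBS3 lies in the body of Hoxd10 at position 74694237, with WT values of 9.41, 7.29 and 8.04. CBS4 lies 112 bp from the 5′ end of Hoxd10 at position 74691779, within the printed window, with WT values of 3.39, 5.85 and 5.21, the lowest of the 5. CBS5 lies between Hoxd11 and Hoxd10 at position 74686497, inside the annotated span of both genes, and read 12.997, 9.66 and 11.8 in WT. At CBS3, CBS4 and CBS5, as at CBS1, both mutant libraries lacked a peak over the WT summit.

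CBS2, at position 74702390 613 bp from the predicted gene Gm38462, was not fully empty. Its WT fold enrichment was 19.1, 14.2 and 11.5. Del(CBS1-5) replicate 1 had a peak of 5.25 over it, with a −log10 q of 25.8, and replicate 2 had none. All WT values exceeded the residual one. RAD21 showed the same split: 9.95, 8.82, 10.0 and 10.47 in WT replicates 1 to 4, 3.85 in mutant replicate 1 with a −log10 q of 5.02, and no peak in replicate 2. Some other CBS2-mutant libraries also held a peak here. For CTCF it read 2.96 in Del(CBS1-2) and 3.46 in Del(CBS1-3) replicate 1. Del(CBS1-3) replicate 2, both Del(CBS1-4) libraries and Del(CBS2) had none. For RAD21 it read 2.48 in Del(CBS1-2) replicate 2, 2.85 in Del(CBS1-3) replicate 1 and 3.795 in Del(CBS1-4) replicate 2. Del(CBS1-2) replicate 1, Del(CBS1-3) replicate 2, Del(CBS1-4) replicate 1 and Del(CBS2) had no RAD21 peak. Because 1 Del(CBS1-5) library held a peak, this site is not in the lost counts below.

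A CTCF peak remained beside CBS1 in both mutant libraries. Its summits lay at positions 74716173 and 74716184, and its median summit 245 bp from that of WT, on the Hoxd3 side. The fold enrichment was 6.05 and 6.85, with −log10 q of 20.5 and 21.5. The mutant peaks began 40 and 64 bp past the WT summit and so did not cover it. In the other CBS1-mutant CTCF libraries of the series a peak also covered this place, with fold enrichment of 2.84 to 7.58. No RAD21 peak was found there in either Del(CBS1-5) library. When any peak base within 250 bp was accepted as the same site, CBS1 was no longer counted as lost for CTCF.

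The Hoxd9 promoter also held a CTCF peak in both mutant libraries, around position 74697750, with fold enrichment of 3.56 and 6.66 and −log10 q of 11.5 and 24.6. Among WT libraries only replicate 3 had a peak there, of 1.89. The mutant values were above it, but peaks also occurred there in Del(CBS1-3) replicate 1 (4.88, between the 2 mutant values), Del(CBS1-4) replicate 2 (2.44) and Del(CBS2) (2.48). From Hoxd11 to Hoxd1 the number of CTCF peaks was 5, 5 and 7 in WT and 8 and 2 in Del(CBS1-5). The 8 of mutant replicate 1 included 5 weak ones in the span of Hoxd3, of 2.25 to 2.70.

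RAD21 was lost over the CBS1 and CBS4 positions. At CBS1 its WT values were 15.2, 13.7, 11.8 and 17.8, and at CBS4, in the Hoxd10 promoter, 6.09, 9.67, 7.92 and 12.1. Neither mutant library had a peak at either place. At CBS3 none of the 4 WT libraries held a RAD21 peak, and CBS5 held 2.41 in replicate 2, 4.25 in replicate 3 and no peak in replicates 1 and 4, so the cohesin readout bears mainly on CBS1, CBS2 and CBS4.

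**Figure D1:**
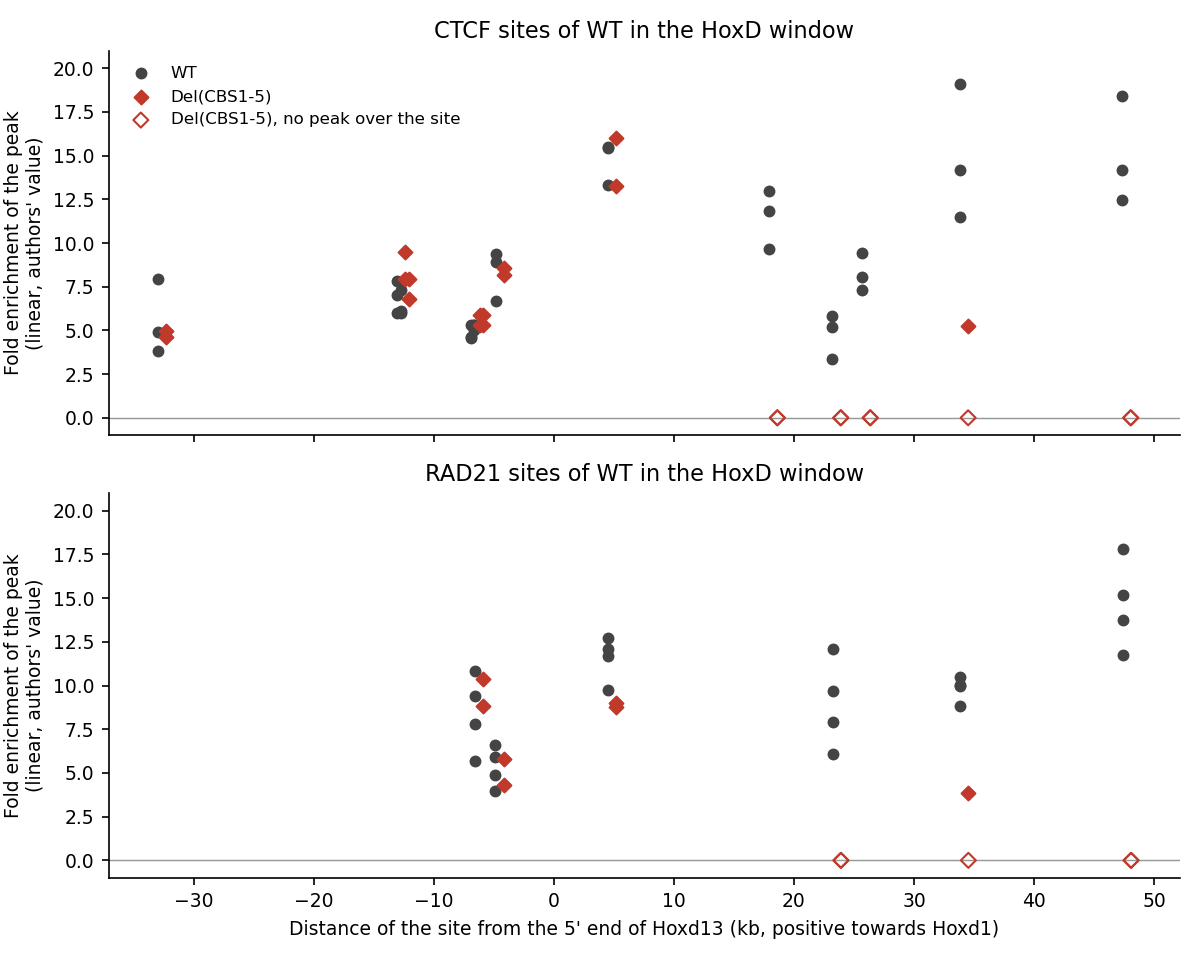
Fold enrichment (y axis, linear, the authors' value) of each WT CTCF site (top) and RAD21 site (bottom) of the HoxD window by distance from the Hoxd13 5′ end in kb (x axis). Each point is 1 library, circles WT and diamonds Del(CBS1-5), and open diamonds at 0 mark libraries with no peak over the site. The 5 CTCF sites at the right have 1 filled diamond among them, of 5.25, while the 7 at the left have peaks of both genotypes.

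The 7 sites left intact, from beyond Evx2 to Hoxd13, kept CTCF. RAD21 peaks, present there in WT at Hoxd13 and at 2 places in the predicted gene Gm31790 beside Evx2, were found in both mutant libraries too. The 7 CTCF sites were not 7 separate peaks in every library. In Del(CBS1-5) replicate 1 a peak of 7.97 with 1 summit covered both Evx2 sites. At 74661718 and 74661969 in Gm31790 each mutant library had 1 summit for both, of 5.28 and 5.89. WT replicate 3 also had 1 summit for both, of 5.29. Between Hoxd13 and Hoxd12, at position 74673096, CTCF read 15.4, 15.5 and 13.3 in WT and 13.3 and 16.007 in Del(CBS1-5), so the groups overlapped. In Evx2, at position 74655517, the rank of the peak among sites found in all 5 libraries was at percentile 35.7 ± 2.55 (SD, n = 3) in WT and 49.1 ± 7.16 (SD, n = 2) in the mutant, with p = 0.1 by an exact permutation test (2-sided; no smaller p is possible for 3 against 2) and an adjusted p of 1. At the Hoxd13 site RAD21 read 11.7, 12.7, 12.1 and 9.73 in WT and 9.004 and 8.75 in Del(CBS1-5), so both mutant values lay under all WT values. Its rank was at percentile 74.2 ± 24.3 (SD, n = 4) in WT and 58.3 ± 20.0 (SD, n = 2) in the mutant, with an exact permutation p of 0.533. At position 74661981 in Gm31790 the RAD21 rank was 40.9 ± 18.8 (SD, n = 4) and 66.4 ± 9.64 (SD, n = 2), with an exact permutation p of 0.2. With so few libraries this test could not reach 0.05 at any site, so it does not show that the intact sites were the same in both groups.

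Across the genome, 211 of 47658 WT CTCF sites were lost, a background of 0.443%, and 781 of 55277 Del(CBS1-5) sites were gained, 1.41%. Of RAD21 sites 859 of 20061 were lost, 4.28%, and 12 of 15640 were gained, 0.0767%. With 3 or 4 libraries against 2, no single site can reach a permutation p of 0.05, so these counts are descriptions. They moved with the libraries used, and each omission relaxes the rule, since fewer libraries must hold or lack the peak. Lost CTCF sites numbered 987, 702 and 409 without WT replicate 1, 2 or 3 and 1653 and 423 without mutant replicate 1 or 2. Gained CTCF sites numbered 3938 without WT replicate 3 and 2561 and 8118 without mutant replicate 1 or 2. Lost RAD21 sites numbered 2924 without WT replicate 1, 1403 without WT replicate 4 and 5366 without mutant replicate 1. Gained RAD21 sites numbered 25 and 27 without WT replicate 2 or 4, and 397 and 1158 without mutant replicate 1 or 2. For each of the 4 counts the largest change came from leaving out a mutant list. The 2 proteins seldom changed at the same place. Of the 211 lost CTCF sites, 3 had RAD21 in every WT library, 1.42% against 41.1% of all WT CTCF sites, and those 3 lacked it in both mutants. The mutated HoxD sites CBS1 and CBS4 are among these 3. RAD21 was in no WT library at 190 of the 211, and at 16017 of all 47658 WT CTCF sites. A share for weak CTCF sites alone is not given. Of the 859 lost RAD21 sites, 772 had CTCF in every WT library, 89.9% against 98.6% of all WT RAD21 sites, and 764 of them had it in both mutants too.

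With the full lists, the lost CTCF sites were spread over promoters, gene bodies and intergenic places like CTCF sites in general. Promoters held 17 of the 207 that could be placed, 8.21%, against 8.93% of all sites. The rate of loss was 0.412% at promoters (95% exact binomial interval 0.240 to 0.659%), 0.449% in gene bodies (0.369 to 0.541%) and 0.454% between genes (0.360 to 0.565%), so the intervals overlapped. These intervals cover counting error only. Beyond the Hox sites, the 2 strongest lost promoter sites lay at Ccdc116, with WT values of 3.597, 7.06 and 6.93, and Znrf1, a ubiquitin ligase gene, with 4.35, 10.4 and 2.36.

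Gained CTCF sites and lost RAD21 sites lay at promoters more often. Of 753 placed CTCF gains 131 were at promoters, 17.4% against 9.60% of all mutant sites. Promoters gained at a rate of 2.54% (2.13 to 3.01%), gene bodies at 1.36% (1.23 to 1.5006%) and intergenic sites at 1.17% (1.03 to 1.33%). Of 828 placed RAD21 losses 130 were at promoters, 15.7% against 7.83%. The rates were 8.56% (7.20 to 10.1%) at promoters, 4.10% (3.72 to 4.52%) in gene bodies and 3.68% (3.28 to 4.11%) between genes. Of the 11 RAD21 gains that could be placed, 7 were at promoters, 4 in gene bodies and 0 between genes, and the promoter share of 63.6% was 19.4% when either mutant library was left out.

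The 2 promoter excesses depended on the peak lists. For RAD21 losses the promoter share was 6.64% against 6.24% of all sites when only peaks with a −log10 q of at least 10 were used, and 7.19% against 6.35% when every list was shortened to the same number of top peaks. The excess was thus not found with those lists. For CTCF gains it was 16.1% against 9.31% with equal lists and 11.4% against 9.02% with the −log10 q of at least 10. Single libraries mattered too. Without mutant replicate 2, when the other list alone defined the sites, the promoter share of CTCF gains was 9.77% against 9.32% of all sites. Without mutant replicate 1, whose omission leaves the short list to define the losses, the promoter share of RAD21 losses was 8.73% against 7.83%. Neither excess was found then, while the other omissions gave 14.3 to 17.2% for CTCF gains and 16.03 to 18.9% for RAD21 losses.

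Peak strength marked the changed sites more than their place did. Strength is the mean percentile of −log10 p among sites of that antibody, and quartile 1 holds the weakest sites. It is taken in the WT libraries for losses and in the Del(CBS1-5) libraries for gains, which have no WT peak by rule. That quartile held 173 of the 211 CTCF losses (82.0%), 782 of the 859 RAD21 losses (91.0%) and 726 of the 781 CTCF gains (93.0%). From the weakest to the strongest quartile the CTCF loss rate was 1.45, 0.218, 0.0839 and 0.0168%. For RAD21 losses it was 15.6, 0.798, 0.658 and 0.0798%, and for CTCF gains 5.25, 0.355, 0.0434 and 0%. Without WT replicate 4 the weakest quartile held 77.1% of the RAD21 losses, and without mutant replicate 1, when the short list alone defined them, 65.8%. The 2 lost CTCF sites of the strongest quartile were both in HoxD, CBS1 and CBS5. A weak site lies nearer the calling threshold in every library, and how far the threshold sets these losses was not tested.

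Within the weakest quartile of the full lists a promoter excess was seen for 2 of the 3 kinds of change. Rates within quartiles are given for the full lists only, and their intervals again cover counting error only. CTCF gains made up 8.48% of weak promoter sites (7.12 to 10.0%) and 4.79% and 4.88% of weak gene body and intergenic sites. RAD21 losses made up 20.9% of weak promoter sites (17.6 to 24.5%), against 14.98% and 14.7%. CTCF losses made up 1.23% (0.658 to 2.0999%), against 1.43% and 1.56%, with overlapping intervals.

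**Figure D2:**
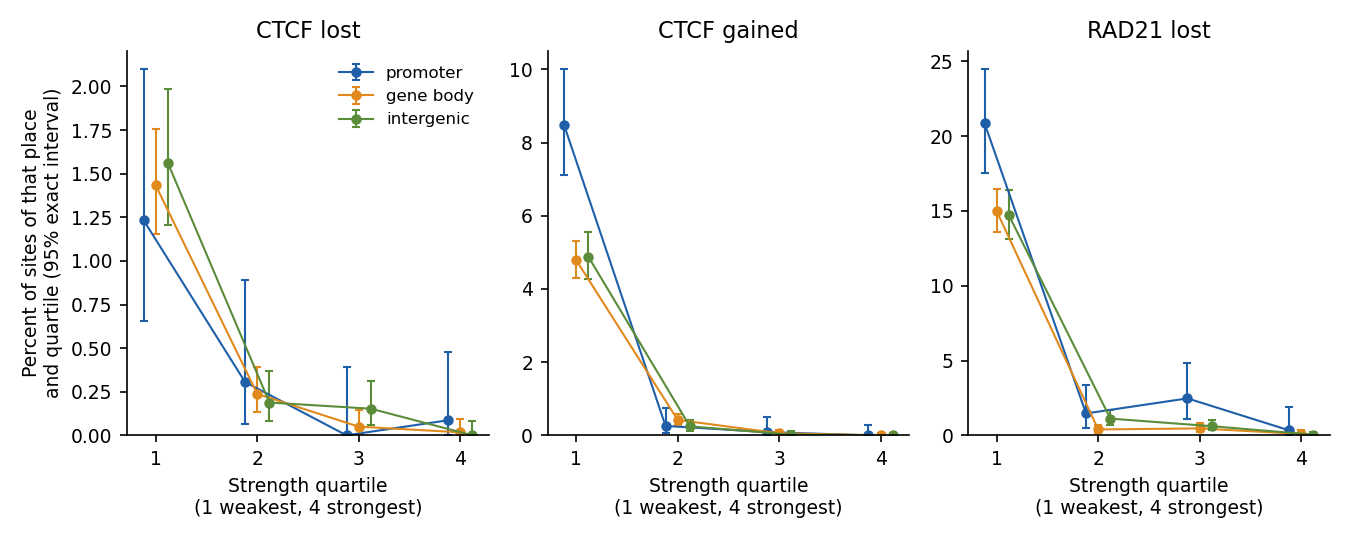
Percent of sites lost or gained (y axis, linear, a scale of its own in each panel) by strength quartile (x axis, 1 weakest) for promoter, gene body and intergenic sites. Points are shares of sites and bars are 95% exact binomial intervals. All 3 panels fall steeply after quartile 1, where promoters stand highest for CTCF gains (8.48%) and RAD21 losses (20.9%).

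Few changes involved clear peaks in every library. Requiring a −log10 q of at least 10 in each library that holds the site, an alternative added after seeing the data, left 4 of 32827 lost CTCF sites, 3 of them in HoxD (CBS1, CBS3 and CBS5) and 1 near Gm34526 on chromosome 13. It left 3 of 39000 gained CTCF sites. These were in Slc35d2, with 11.5 and 5.14, near Gm38535, and in Tnfrsf9, which encodes a costimulatory receptor of T cells, with 4.53 and 5.00. For RAD21 8 of 11256 sites were lost and 0 of 7216 gained.

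Besides CBS1, these RAD21 losses included the promoter of Tsfm, a mitochondrial translation elongation factor gene, whose window is printed above. RAD21 there read 7.04, 7.24, 7.17 and 6.497 in WT and had no peak in either mutant library, while all 10 libraries of the other alleles had one, of 3.75 to 11.7. The site in Aim2, which encodes a cytosolic DNA sensor, read 9.25, 5.98, 9.06 and 13.5. The other 5 lay in Celf4, at the tRNA gene n-TCgca57, and near Sephs1, Gm13172 and Htr2a.

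Most of the stronger changed sites outside HoxD had unequal peaks within the group that held them. In WT the strongest lost intergenic CTCF site, near Gm35657, read 18.8, 2.40 and 18.6. The site near Znhit3 read 2.39, 9.80 and 10.497, and the one near Cyp4f40 16.4, 2.53 and 13.5. In gene bodies, Lrriq1 had 3.91, 13.7 and 16.6 and Hmgcll1 15.4, 3.72 and 14.9. The weak library was thus replicate 2 at Gm35657, Cyp4f40 and Hmgcll1 and replicate 1 at Znhit3 and Lrriq1.

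Gained CTCF sites showed the same within the mutant. In the Tnfaip8l2 promoter, whose gene restrains immune signalling, Del(CBS1-5) replicates 1 and 2 read 2.1005 and 16.1. Trim62 had 2.69 and 14.1. Treh, the trehalase gene, had 11.3 and 2.02, Stat2, an interferon-pathway transcription factor gene, 10.1 and 2.33, and the Pmm1 promoter 6.25 and 2.36. Either library could be the high one.

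Over all lost CTCF sites of the upper 3 strength quartiles outside HoxD, the highest WT fold enrichment was 4.22 times the lowest in the median, and it passed 2 times at 31 of 34 sites. Among all WT CTCF sites of those quartiles the median was 1.38 and 5.84% passed. For lost RAD21 sites the median was 2.32, with 50 of 75 past 2 times, against 1.44 and 7.19%. For gained CTCF sites, within the mutant, it was 4.65, with 51 of 55, against 1.15 and 1.98%. At the 4 lost CTCF sites of HoxD the ratio was 1.29 to 1.73, and at the 2 lost RAD21 sites 1.52 to 1.99, so no HoxD site passed 2 times.

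**Figure D3:**
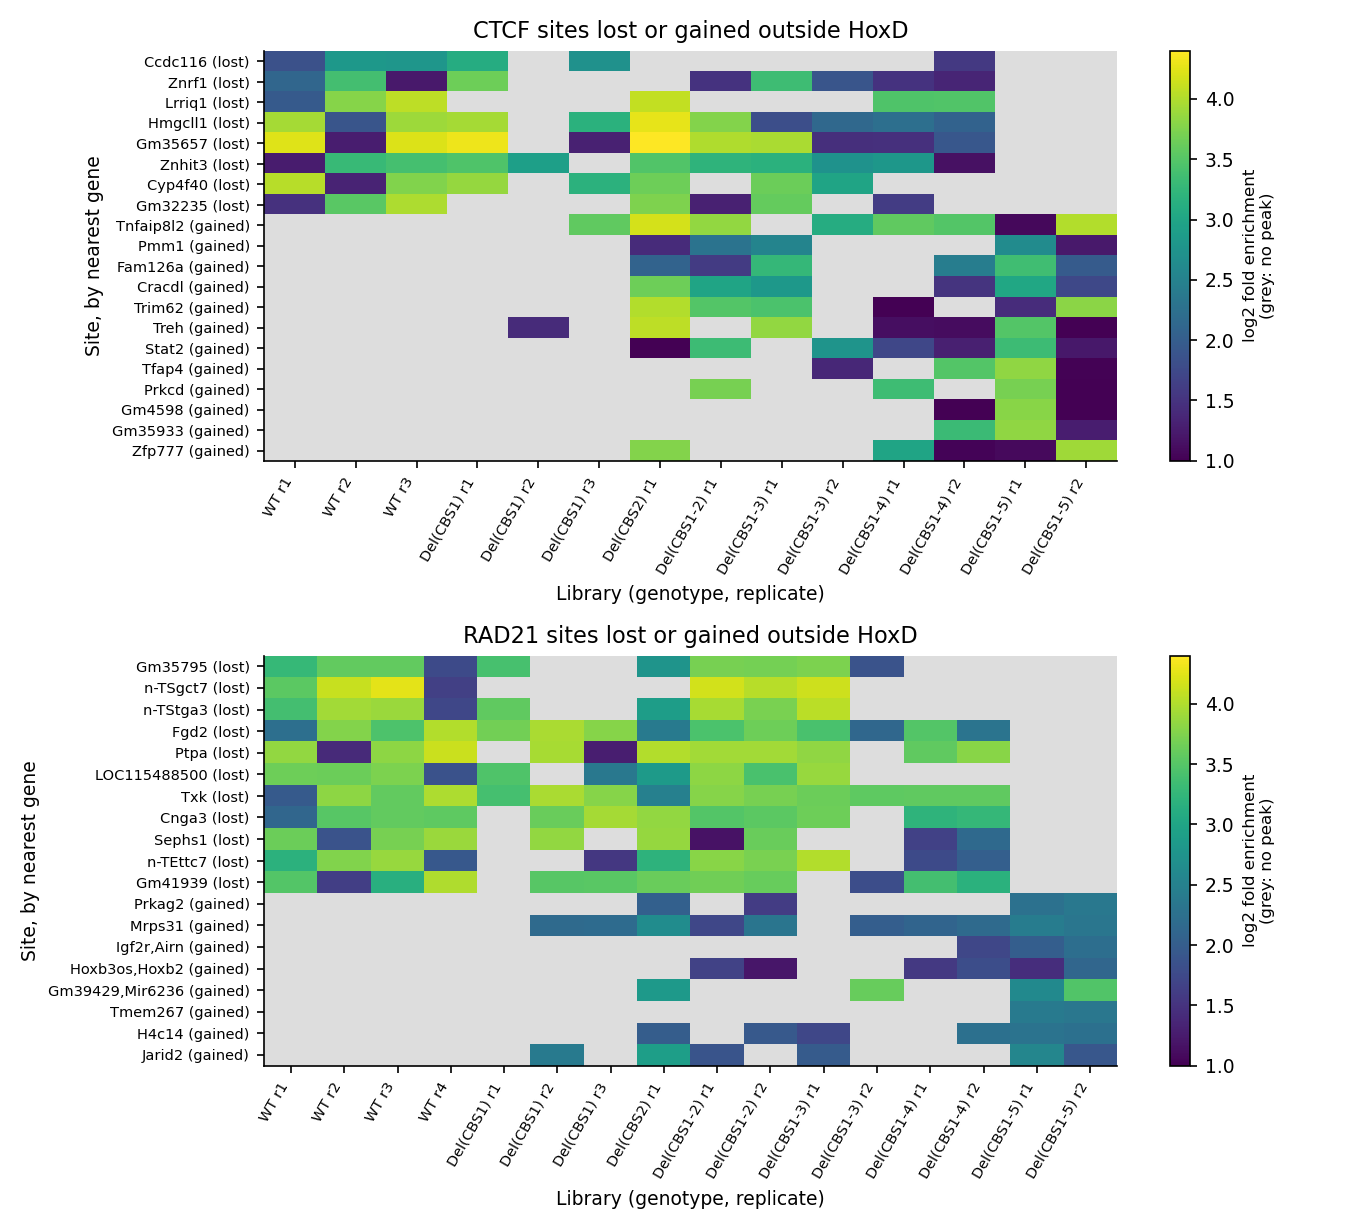
Fold enrichment on a log2 colour scale (grey, no peak) of the named lost and gained sites outside HoxD (rows, by nearest gene) in every library of the series (columns, by genotype and replicate), for CTCF (top) and RAD21 (bottom). By rule the lost sites are grey in both Del(CBS1-5) columns and the gained sites grey in WT, and the libraries of the other alleles hold many of them at high or low levels, as at Gm35657 (WT 18.8, 2.40 and 18.6).

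The libraries of the other HoxD alleles, which took no part in the choice, hold or lack these places in varied ways. The 207 CTCF sites lost outside HoxD were found in a median of 3 of the 9 other CTCF libraries, and 7 of them in none. Weak WT CTCF sites as a whole were found in a median of 6. The 857 RAD21 sites lost outside HoxD were found in a median of 8 of 10 other RAD21 libraries, and 93 of them, 10.9%, in all 10. Weak WT RAD21 sites as a whole were found in a median of 9, and 28.3% of them in all 10. Gained CTCF sites were found in a median of 2 of 9, and 110 of the 781, 14.1%, in none. Weak CTCF sites of the mutant as a whole were found in a median of 4, and 1.69% of them in none. Those 110 were covered in Del(CBS1-5) alone among the 14 CTCF libraries. CTCF recovery differed between short and long lists. Examples are Del(CBS1) replicate 2, Del(CBS1-3) replicate 1 and Del(CBS2), with 40594, 72166 and 88243 summits. They covered 8.21%, 77.3% and 64.7% of the 207 lost sites and 1.66%, 45.3% and 64.3% of the gained ones. Of all WT CTCF sites outside HoxD they covered 74.7%, 99.3% and 98.2%. The part of list length was not tested.

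RAD21 losses were most frequent where no WT CTCF site had its summit within 150 bp. A CTCF peak can still cover such a place. Only 41 of the 859 lost RAD21 sites, and 89 of all 20061, had CTCF in no WT library. Of WT RAD21 sites without a WT CTCF site 127 of 416 were lost, 30.5%, against 732 of 19645 with one, 3.73%. Among sites of the upper 3 strength quartiles the counts were 47 of 169, 27.8%, and 30 of 14876, 0.202%. At promoters 37 of 99 without a WT CTCF site were lost (37.4%), and 93 of 1419 with one (6.55%).

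The recovery of WT RAD21 sites by each library is given beside the length of its list. Sites at tRNA genes were left out here. Del(CBS1-5) replicate 1, with 26694 summits on the main chromosomes, covered 95.5% of sites with a WT CTCF site and 66.9% without. Del(CBS1-5) replicate 2, with 16627, covered 74.3% and 26.1%. Libraries of other alleles with lists of like length gave near values: Del(CBS1-3) replicate 2, with 25513, covered 93.6% and 60.9%, and Del(CBS1) replicate 1, with 17996, covered 79.5% and 27.1%. The other 8 RAD21 libraries had lists of 33172 to 48024 and covered 98.3 to 99.6% and 82.2 to 95.2%, without an order by length among them. The part of list length in the losses was not tested.

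**Figure D4:**
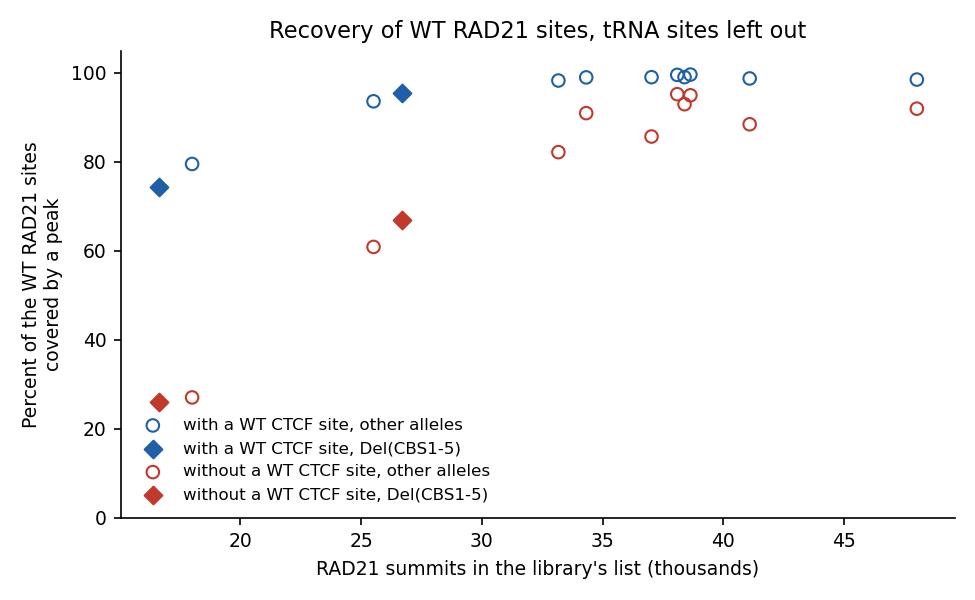
Percent of WT RAD21 sites covered by a peak (y axis, from 0) against the number of summits in each mutant library's RAD21 list (x axis, in units of 1000), for sites with (blue) and without (red) a WT CTCF site. Diamonds are the 2 Del(CBS1-5) libraries and open circles the 10 libraries of other alleles. Del(CBS1-5) replicate 2 (74.3% and 26.1%) lies beside Del(CBS1) replicate 1 (79.5% and 27.1%).

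Transfer RNA genes, which RNA polymerase III transcribes and where cohesin loading factors are known to bind, stood out among the stronger RAD21 losses. They were chosen after the values were seen, so the counts are a description. Of 37 WT RAD21 sites within 500 bp of a tRNA gene 18 were lost, 48.6% against 4.28% of all WT RAD21 sites. Without a WT CTCF site 15 of 17 were lost, 88.2% against 30.5% of all such sites. With one 3 of 20 were lost, 15% against 3.73%. At n-TSgct7 on chromosome 2 the WT values were 11.6, 17.4, 19.1 and 3.13, and at n-TStga3 on chromosome 10 they were 10.4, 15.3, 14.8 and 3.32. WT replicate 4 was the weakest at both. Over the 18 sites the median fold enrichment was 8.70, 11.4, 11.7 and 3.66 in WT replicates 1 to 4. For CTCF 0 of 46 sites at tRNA genes were lost. Over all WT CTCF sites 0.443% were lost, so this count does not set them apart.

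The share of 408 tRNA genes with a RAD21 summit within 500 bp was 57.6%, 65.2% and 66.7% in WT replicates 1 to 3 and 11.8% in WT replicate 4. It was 6.62% and 4.66% in Del(CBS1-5). The same low level occurred in 2 of the 3 Del(CBS1) libraries (9.56% and 8.58%), in both Del(CBS1-4) libraries (12.3% and 14.2%) and in 1 of the 2 Del(CBS1-3) libraries (7.84%). The remaining Del(CBS1) and Del(CBS1-3) libraries read 52.9% and 67.2%, Del(CBS1-2) 66.4% and 65.9% and Del(CBS2) 52.0%. High and low libraries thus occurred within 1 genotype, WT included, and for CTCF the share was 11.8 to 22.8% in all 14 libraries. The level did not follow the list length: Del(CBS1) replicate 1 was high with 17996 summits and Del(CBS1-4) replicate 2 low with 41097. Without the tRNA sites 841 of 20024 RAD21 sites were lost, 4.20%, and without a CTCF site 112 of 399, 28.1%, and at promoters 123 of 1508, 8.16%.

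**Figure D5:**
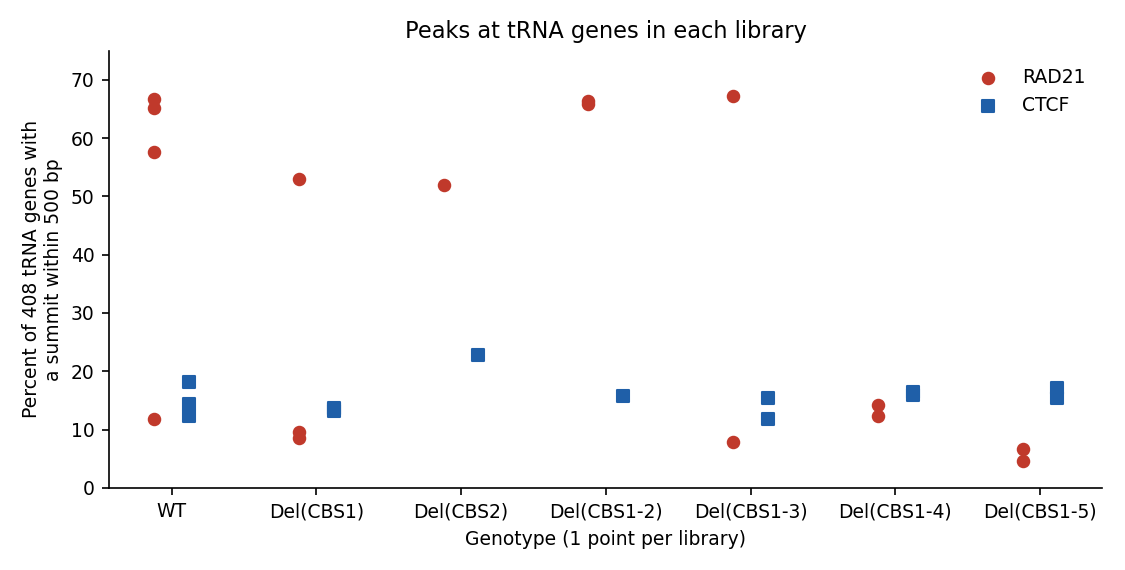
Percent of 408 tRNA genes with a peak summit within 500 bp (y axis, from 0) by genotype (x axis), 1 point per library, RAD21 as red circles and CTCF as blue squares. The RAD21 libraries lie either at 52.0 to 67.2% or at 4.66 to 14.2%, with WT, Del(CBS1) and Del(CBS1-3) at both levels.

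RAD21 gains were few and weak. In promoters they included Prkag2, which encodes a subunit of AMP-activated kinase, with 4.81 and 5.16 in the 2 mutant libraries, and Mrps31, a mitochondrial ribosomal protein gene, with 5.37 and 5.05. The promoter of Airn, the non-coding transcript that lies over the imprinted gene Igf2r, had 4.03 and 4.68, and that of Hoxb3os at Hoxb2 2.72 and 4.36. Gm39429 at Mir6236 had the highest values, 6.14 and 11.1. The site in Tmem267, with 5.25 and 5.11, was covered in no other RAD21 library of the series. The Mrps31 site was found in 8 of the 10 libraries of other alleles.

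Gene lists were counted by sites within 5 kb of a member, and each count is to be read against the shares over all sites: 0.443% for CTCF losses, 4.28% for RAD21 losses, 1.41% for CTCF gains and 0.0767% for RAD21 gains. Read against that rate, a count of 0 lost CTCF sites in lists of 20 to 98 sites does not set a list apart. In the HoxD list itself 4 of 11 CTCF and 2 of 6 RAD21 sites were lost, a direction the alleles fix. In the other Hox clusters 0 of 20 CTCF and 0 of 9 RAD21 sites were lost, and 1 of 10 RAD21 sites, the Hoxb2 one, was gained. The list of genes flanking HoxD had 0 of 24 CTCF and 1 of 8 RAD21 losses, the latter in Pde11a, a phosphodiesterase gene. The Pde11a site lay at position 76128267, over 1 Mb from the HoxD window, at a strength of percentile 7.15. Imprinted domains had 0 of 50 and 0 of 22 losses and the RAD21 gain at Airn, 1 of 21. The clustered protocadherins, cell adhesion genes whose choice of promoter depends on CTCF, had 0 of 39 CTCF losses and 3 of 11 RAD21 losses, 27.3%, against 4.28% of all sites, all in the span of Pcdhga1 and at strengths of percentile 37.5, 6.78 and 4.25.

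Among regulators of trunk tissues, the limb and lateral plate list had 4 of 58 CTCF sites gained, 6.90% against 1.41% of all sites, in Tbx3, Prrx1 and the Grem1 promoter and near Hand2, all in the weakest quartile, with 0 of 40 CTCF and 0 of 16 RAD21 sites lost. The neural tube list had 1 of 8 RAD21 losses, near Sox3, and 0 of 22 CTCF losses. The somite and muscle list had 1 of 24 CTCF gains, near Uncx, and 0 of 23 CTCF and 0 of 11 RAD21 losses. The cohesin and CTCF machinery list had 1 of 32 CTCF losses, in Stag1, 1 of 14 RAD21 losses, in Pds5b, and 1 of 41 CTCF gains, in the Pds5a promoter.

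In housekeeping families, cytosolic ribosomal protein genes had 0 of 94 CTCF and 2 of 24 RAD21 losses (8.33%), mitochondrial ones 0 of 98 and 2 of 47 (4.26%), and proteasome subunit genes 0 of 70 and 1 of 21 (4.76%). Zinc finger protein genes had 2 of 413 CTCF losses, 10 of 520 CTCF gains (1.92%) and 8 of 131 RAD21 losses (6.11%). The RAD21 loss shares, and the zinc finger CTCF shares, are near or above those over all sites. The counts of 0 CTCF losses lie below, and are too small to set a list apart. CTCF gains were 1 of 104 (0.962%) at cytosolic and 3 of 113 (2.65%) at mitochondrial ribosomal protein genes. At proteasome genes they were 0 of 80, so CTCF gains lay on both sides of the share over all sites.

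Sites with a peak in every library of an antibody were tested for a shift in relative enrichment with limma, on normal scores of the fold rank. For CTCF 0 of 30976 sites passed an adjusted p of 0.05, a share of 0%, and 499 (1.61%) had an unadjusted p under 0.05. For RAD21 6 of 12932 passed, 0.0464%, and 1236 (9.56%) had an unadjusted p under 0.05. The RAD21 site in Yeats4, a reader of histone acylation, read 8.16, 8.09, 7.70 and 9.80 in WT and 3.7975 and 3.78 in Del(CBS1-5), a limma change of -2.02 score units (SE 0.36, adjusted p = 0.0204). In Wasl, an actin regulator gene, the WT values were 11.7, 12.6, 12.0 and 16.5 and the mutant values 9.12 and 4.69. In both genes all mutant values lay under all WT values.

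The only one of the 6 that rose was the promoter of Rwdd3, with 7.58, 10.6, 8.92 and 12.4 in WT and 15.6 and 15.3 in the mutant, a limma change of 1.81. The others fell: Mtus1 by 1.87, Mark3, a kinase gene, by 1.78, and a site near Gm36237 by 1.76. All 6 calls were lost with the replicate number as a block and without WT replicate 1, 2 or 3 or mutant replicate 2, while 157 sites were called without mutant replicate 1. At promoters 72 of 804 RAD21 sites (8.96%) were higher at an unadjusted limma p under 0.05 and 18 (2.24%) lower. Over all 12932 RAD21 sites 559 (4.32%) were higher and 677 (5.24%) lower. At the HoxD sites found in every CTCF library no change was called.

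The makeup of the lists was compared over libraries with the same number of top peaks in each, 52885 for CTCF and 16627 for RAD21. The promoter share of CTCF peaks was 9.04 ± 0.051% (SD, n = 3) in WT and 9.39 ± 0.34% (SD, n = 2) in Del(CBS1-5), with an exact 2-sided permutation p of 0.1 and an adjusted p of 0.311 over 7 tests. For RAD21 it was 7.10 ± 0.22% (SD, n = 4) and 8.11 ± 1.46% (SD, n = 2), with an exact permutation p of 0.267 and an adjusted p of 0.373. Mutant replicate 1 read 7.08% and replicate 2 9.15%, so replicate 2 alone carried the higher mean. Top RAD21 peaks lay at WT CTCF sites in 98.2 ± 0.35% (SD, n = 4) of cases in WT and 97.0 ± 1.92% (SD, n = 2) in the mutant, with an exact permutation p of 0.2 and an adjusted p of 0.35. None of the 7 tests passed, and the smallest p possible was 0.1 for CTCF and 0.0667 for RAD21.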

How the data were processed

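The 11 libraries of WT and Del(CBS1-5) trunks measure CTCF or RAD21 by ChIPmentation. MACS2 2.1.1.20160309 and bedtools 2.27.1, with Picard 2.19.0 and SAMtools 1.9, are named in the submitters' processing notes, as are Bowtie2 2.3.5 and cutadapt 1.16. The build is mm10, and options are not given in the sources used here. The authors deposited 1 peak list per library. In it the fold enrichment is a ratio to the library's own local background, and each −log10 p or q in the deposited lists is the peak caller's own. Read counts are not in these lists, and depth and its precision were unknown. Fold values were set side by side as descriptions and tested only as ranks.

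Peaks on the main chromosomes were used. Summits of a group's libraries within 150 bp were linked, and a site needed a peak over the median summit in all of them. Places came from RefSeq genes of GRCm38.p6, which had 5′ ends for 17492 of 21887 protein-coding genes. Sites on chromosome 18 were counted but not placed. Relative enrichment was fitted with limma 3.58.1 in R 4.3.3 (trend, robust) over all 14 CTCF or 16 RAD21 libraries, with 1 coefficient per genotype and Benjamini-Hochberg adjustment over all sites. Tested on simulated data, it recovered 98% of 50 CTCF and 96% of 50 RAD21 shifts of 3 score units, and 0% and 4% of shifts of 1 unit, with 5 false calls each. Other steps ran in Python 3.11.15 (scipy 1.17.1, pandas 2.3.3, numpy 2.4.6, with figures by matplotlib 3.10.9).

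The sites, the 13 gene lists and the tests were chosen with earlier results of these data known. The sites named were all of the HoxD window, the 4 strongest lost and gained per antibody and place, those called by limma and up to 4 genes per list. Other sites named (all that kept a −log10 q of at least 10, peaks present in the mutant at HoxD, tRNA sites) were chosen after their values were seen. Alternatives covered the matching distance, the peak threshold, equal lists, the number of WT libraries, the promoter distance, strength by fold enrichment, the rank measure, the libraries fitted, the replicate block and leaving out each library.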

Additional observations from a re-analysis of the deposited data

Results flagged for a closer look

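In WT replicate 4 11.8% of tRNA genes had a RAD21 summit within 500 bp, while the other WT libraries lay at 57.6 to 66.7%. The gap to the nearest library was 0.835 of the whole range, above Dixon's 95% critical value. The promoter share of the top RAD21 peaks was 6.77% in the same library and 7.21% in each of the other 3, with a gap of 0.986 of the range. Of 12 groups of 4 values examined these 2 stood out, and chance marks about 1 in 20 such groups. The tRNA group was chosen after its values were seen, so that rate does not apply to it.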

How the results depend on the processing

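The counts depended on the peak rule. Lost CTCF sites numbered 34 with peaks of −log10 q of at least 10, 332 with equal lists, 1671 when 2 WT libraries sufficed and 4 when every holding library had to reach a −log10 q of 10. For gained CTCF sites these were 316, 509, 4322 (at most 1 WT library with a peak) and 3, for lost RAD21 sites 470, 172, 8681 and 8, and for gained RAD21 sites 0, 132, 45 and 0, with 42 by summits within 100 bp and 7 by any base within 250 bp. Leaving out 1 library at a time gave 409 to 1653, 959 to 8118, 944 to 5366 and 12 to 1158 in the same order. Promoter shares were 15.6% (−log10 q of at least 10), 4.83% (promoter of 250 bp) and 17.4% (2.5 kb) for CTCF losses, 11.4%, 8.37% and 23.9% for CTCF gains, and 6.64%, 7.73% and 20.0% for RAD21 losses, with 7.19% for the last and 15.7% for RAD21 gains with equal lists. With 1 library left out they ran from 6.55 to 10.2%, 9.77 to 17.2%, 8.73 to 18.9% and, for RAD21 gains, 19.4 to 63.6%. The share of losses in the weakest quartile was 88.6% for CTCF with equal lists and 88.1% for RAD21 by fold enrichment, and 83.1 to 90.2% and 65.8 to 91.2% with 1 library left out. The mutant minus WT promoter share of RAD21 peaks turned to -3.67 points with all peaks and -0.0203 without mutant replicate 2 (up to 2.05 otherwise), and the share at CTCF sites to 7.96 with all peaks, 1.56 at a −log10 q of at least 10 and 0.0601 without mutant replicate 2 (down to -2.66). The cause of these changes was not tested. For limma, CTCF calls numbered 3 with the WT and Del(CBS1-5) libraries alone and 0 to 1 with a library left out. RAD21 calls numbered 14 by ranks of −log10 p, 1 with the WT and Del(CBS1-5) libraries alone, 2 without the weakest 25% of sites and 0 to 157 with a library left out. With the replicate block 0 CTCF and 0 RAD21 sites were called. Deviations of same-numbered libraries correlated at -0.251 and 0.059 for CTCF and -0.165 and -0.0791 for RAD21. With 2 mutant libraries the deviations mirror each other, so these values cannot decide whether the replicate numbers pair the samples. Depth was unknown, so what it limits could not be measured.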

Other observations

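On chromosome 2, up to 1 Mb from the window 0 of 43 CTCF and 0 of 15 RAD21 sites were lost. Between 1 and 10 Mb 3 of 333 CTCF (0.901%) and 13 of 151 RAD21 sites (8.61%) were lost, and beyond 10 Mb 13 of 3214 (0.404%) and 58 of 1394 (4.16%). The only CTCF site gained within 1 Mb lay at position 75617784, near Gm50595, with a −log10 q of 1.82 in its weaker library.

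Between genes the RAD21 loss rate was 3.59% under 10 kb from a gene, 3.66% from 10 to 100 kb and 5.24% beyond 100 kb (15 of 286 sites). For CTCF losses these were 0.353%, 0.586% and 0.460% (3 of 652 sites).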
